A study of Rattus norvegicus with 12 samples.

Results

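The genes described here are 4 members of the MS4A family, Ms4a4a, Ms4a6a, Ms4a6e and Ms4a7, and the pair Tmem176a and Tmem176b, 6 of the 32623 genes in the deposited count files. They were found by their symbols. Each had 1 entry, and all 6 were among the 13723 genes with enough counts to test. The genes were selected on their levels in these same libraries, which differ between 2 sets of libraries described below, so set differences are given as a description, with no test.

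Polyadenylated RNA was measured in 12 libraries of primary rat cells that the labels call hepatic stellate cells, which are liver pericytes that store vitamin A. All donor rats had cirrhosis from chronically inhaled CCl4 (carbon tetrachloride), so every group shares that injury, and the cells were purified on gradients by centrifugation. They were kept for 24 h across Transwell membrane inserts, which let soluble products pass, from 15000 viable human amniotic epithelial cells (hAEC), from human amniotic mesenchymal stromal cells (hAMSC, likewise 15000) or from vehicle (Veh in the labels, which do not say what it was). The comparisons ask whether the rat cells' RNA differed with either human cell type. The libraries are named here by group and sample number: hAEC 3, 4, 11 and 12, hAMSC 7, 8, 15 and 16, and vehicle 17, 18, 19 and 20. Within each group the 2 lower-numbered libraries differed from the 2 higher-numbered ones. The lower-numbered set is therefore hAEC 3 and 4, hAMSC 7 and 8, and vehicle 17 and 18, and the higher-numbered set is hAEC 11 and 12, hAMSC 15 and 16, and vehicle 19 and 20. These sets were seen in the expression values and are not named by the labels. No label ties the 4 libraries of a group to separate animals or cultures. The p-values therefore reflect library-to-library spread alone, and that spread may be technical.

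Total counts ran from 27382724 to 34922211 per library. Levels are given as CPM, the counts of a gene scaled to a common library size (1e+06 counts). Most markers of the labelled cell type were near 0: the actin gene Acta2, raised in activated stellate cells, lay between 0.803 and 3.0003 CPM, Col1a1 between 0.660 and 5.21 CPM, and Lrat, which makes stored retinyl esters, between 0 and 0.370 CPM. Col3a1, Des and Pdgfrb did not exceed 2.67 CPM, and the exception among the 7 stellate markers was Reln, an extracellular glycoprotein, at 54.9 to 92.2 CPM in the lower-numbered set and 6.71 to 15.4 CPM in the higher-numbered set. The macrophage protein Cd68 lay between 1526 and 1681 CPM in the same libraries. The summed level of 7 macrophage markers was 10586 to 11030 CPM in the lower-numbered set and 17567 to 19118 CPM in the higher-numbered set. In bulk RNA, fewer cells of a type and less RNA per cell cannot be told apart.

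MS4A proteins are small membrane proteins that cross the membrane several times and sit next to receptors whose signalling they modify. The best known, CD20 (Ms4a1) on B cells and the Fc receptor beta chain (Ms4a2) on mast cells, lie in the same gene cluster as members that mark monocytes and macrophages. MS4A4A marks tissue and alternatively activated macrophages, where it associates with the beta-glucan receptor dectin-1, and variants in the human MS4A cluster are linked to levels of soluble TREM2, a lipid-sensing macrophage receptor. TMEM176A and TMEM176B are related proteins of intracellular membranes in dendritic cells and macrophages, where TMEM176B acts as a cation channel and has been tied to antigen presentation by MHC class II.

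The promoters are shown because the 6 genes form gene clusters whose members differed between the library sets by very unequal amounts. The tables of RefSeq, on the rat build GRCr8, hold a promoter for 5 of the 6 symbols. Ms4a6e was not matched. For 4 of them the 250 bases before the start are printed 5′ to 3′ on the gene's strand, with capitals marking GGAAGT or its reverse complement ACTTCC, the core bound by ETS factors such as the macrophage factor PU.1. Tmem176a (chr4:79105569-79105818, plus strand) and Tmem176b (chr4:79105264-79105513, minus strand) run away from each other, with starts 556 bases apart.
Tmem176a: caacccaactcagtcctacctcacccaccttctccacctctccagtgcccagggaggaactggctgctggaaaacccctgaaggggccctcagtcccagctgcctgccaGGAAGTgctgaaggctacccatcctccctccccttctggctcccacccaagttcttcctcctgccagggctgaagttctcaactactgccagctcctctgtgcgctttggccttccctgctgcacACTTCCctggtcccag
Tmem176b: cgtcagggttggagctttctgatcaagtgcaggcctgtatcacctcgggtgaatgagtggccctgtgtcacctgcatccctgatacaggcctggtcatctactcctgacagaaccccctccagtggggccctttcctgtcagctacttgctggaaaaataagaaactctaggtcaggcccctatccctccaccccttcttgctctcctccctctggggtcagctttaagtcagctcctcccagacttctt
Ms4a4a (chr1:217495454-217495703, plus strand) had the largest difference between the library sets of the 6 genes. Ms4a6a (chr1:217839574-217839823, minus strand) was the only one of them lower in the higher-numbered set.
Ms4a4a: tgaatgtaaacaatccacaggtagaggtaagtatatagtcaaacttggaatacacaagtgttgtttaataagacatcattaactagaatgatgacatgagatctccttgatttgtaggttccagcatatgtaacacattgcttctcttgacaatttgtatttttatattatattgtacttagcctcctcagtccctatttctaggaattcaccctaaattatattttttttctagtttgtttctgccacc
Ms4a6a: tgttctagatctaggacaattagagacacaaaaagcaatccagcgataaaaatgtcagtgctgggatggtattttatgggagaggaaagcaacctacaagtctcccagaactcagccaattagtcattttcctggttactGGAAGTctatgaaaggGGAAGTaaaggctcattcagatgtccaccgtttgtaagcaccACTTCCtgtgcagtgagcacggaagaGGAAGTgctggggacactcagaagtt
On either strand, GGAAGT was found 4 times before Ms4a6a, 2 times before Tmem176a, 1 time before Ms4a7 and not before Ms4a4a or Tmem176b. It occurs in 19.2% of all 33469 promoter windows of this length. The longer PU.1 form GAGGAAGT, which overlaps that core, was found only before Ms4a6a, 28 bases before its start, and is in 2.04% of windows. The AP-1 motif TGANTCA was in none of the 5 windows (6.34% of all windows), and the MAF motif TGCTGA was in that of Tmem176a alone (15.1%). A match is a run of letters and not a measured binding site.

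The Ms4a6 genes share a longer word around their starts. The 17 bases ACTTCCTGTGCAGTGAG were sought as the longest word that Ms4a6a shares with Ms4a6b, Ms4a6bl1 and Ms4a6c near a start. Their presence in these 4 genes was therefore fixed by the search. No other gene in the table held them. They were in 5 of the 33469 windows of 250 bases before to 50 after a start (0.0149%). Ms4a6c has 7 such windows and Ms4a6b 2, so not every start of these genes has the word. The stretches are shown with capitals on the shared word, because reads of these near copies could also be hard to assign.
Ms4a6a (chr1:217839602-217839631, minus strand): agcaccACTTCCTGTGCAGTGAGcacggaa
Ms4a6b (chr1:217715063-217715092, plus strand): agcaccACTTCCTGTGCAGTGAGacagaag
Ms4a6bl1 (chr1:217668265-217668294, plus strand): aacacaACTTCCTGTGCAGTGAGcacagaa
Ms4a6c (chr1:217578267-217578296, plus strand): aacaccACTTCCTGTGCAGTGAGcacagaa
RefSeq gives Ms4a6e, Ms4a6bl and Ms4a6b as older names of Ms4a6bl1, whereas the count files hold Ms4a6e and Ms4a6bl as separate genes. Their counts are estimates that share a read between genes it fits equally well. Counts were not whole numbers for Ms4a6bl and Ms4a6c in 12 of 12 libraries, for Ms4a6e in 10, for Ms4a4a in 7 and for Ms4a6a in 4. Counts of Ms4a7, Tmem176a and Tmem176b were whole in every library.

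Ms4a4a (ENSRNOG00000050024) separated the library sets most. It was at 16.4 and 13.2 CPM in vehicle 17 and 18, 15.5 and 15.6 CPM in hAEC 3 and 4, and 12.9 and 16.1 CPM in hAMSC 7 and 8. Across the higher-numbered set it was at 768 and 694 CPM with vehicle, 696 and 666 CPM with hAEC, and 615 and 722 CPM with hAMSC. All 6 higher-numbered libraries were far above all 6 lower-numbered ones, while the 3 treatments overlapped within each set. The set means were 15.0 ± 1.53 and 693 ± 51.3 CPM (SD, n = 6 each), a ratio of 46.3, which placed Ms4a4a at rank 37 of the 13723 tested genes by this difference.

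Of the 6 genes, 4 were over 2-fold higher in the higher-numbered set with no overlap, against 8.57% of all tested genes. None was over 2-fold lower, against 8.70% of all. The set difference had a median of -0.01 on the log2 scale over all tested genes. The genes were chosen with this difference known, so nothing is read from the count.

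Ms4a7 (ENSRNOG00000020953), a gene of the monocyte and macrophage lineage, differed much less. Its lower-numbered libraries had 68.2 and 61.5 CPM with vehicle, 59.5 and 60.8 CPM with hAEC, and 64.5 and 60.6 CPM with hAMSC. The higher-numbered libraries had 125 and 108 CPM with vehicle, 112 and 102 CPM with hAEC, and 101 and 98.5 CPM with hAMSC. The library sets did not overlap, with means of 62.5 ± 3.25 and 108 ± 9.95 CPM (SD, n = 6 each), a ratio of 1.72. How many of all tested genes lack overlap at such a ratio was not counted.

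Ms4a6a (ENSRNOG00000020991), expressed by monocytes and macrophages, went the other way. In the lower-numbered set it was at 126 and 117 CPM with vehicle, 145 and 135 CPM with hAEC, and 171 and 163 CPM with hAMSC. The higher-numbered set had it at 90.0 and 86.1 CPM with vehicle, 98.3 and 88.8 CPM with hAEC, and 92.2 and 104 CPM with hAMSC. Every lower-numbered library was above every higher-numbered one, and within the lower-numbered set the 3 treatments formed 3 separate levels. The shares of all tested genes that part in either way were not counted, so nothing is read from this. The set means were 143 ± 21.0 and 93.3 ± 6.77 CPM (SD, n = 6 each), 1.53-fold higher in the lower-numbered set.

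Ms4a6e (ENSRNOG00000050395), a further gene of the Ms4a6 branch, had 0 counts in vehicle 17 and 18, where 3 counts would have been 0.108 and 0.0970 CPM. It was at 3.10 and 3.34 CPM in hAEC 3 and 4 and at 2.98 and 4.21 CPM in hAMSC 7 and 8. In the higher-numbered set it was at 57.3 and 53.0 CPM with vehicle, 95.9 and 55.2 CPM with hAEC, and 37.4 and 65.4 CPM with hAMSC. The sets did not overlap (means 2.27 ± 1.81 and 60.7 ± 19.5 CPM, SD, n = 6 each, ratio 26.7), but the spread among higher-numbered libraries was wide.

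The Tmem176 genes moved together. Tmem176a (ENSRNOG00000023708) was at 71.8 and 66.5 CPM with vehicle, 64.4 and 70.5 CPM with hAEC, and 71.8 and 63.7 CPM with hAMSC in the lower-numbered set. Levels in the higher-numbered set were 780.1 and 769 CPM with vehicle, 781 and 732 CPM with hAEC, and 668 and 753 CPM with hAMSC. The sets were far apart (means 68.1 ± 3.72 and 747 ± 43.1 CPM, SD, n = 6 each, ratio 10.97), and the treatments overlapped in the lower-numbered set, while both hAMSC libraries were below both vehicle libraries in the higher-numbered set.

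Tmem176b (ENSRNOG00000008465) was at 218 and 194 CPM with vehicle, 199 and 201 CPM with hAEC, and 211 and 191 CPM with hAMSC in the lower-numbered set. Its higher-numbered libraries were at 1711 and 1594 CPM with vehicle, 1667 and 1572 CPM with hAEC, and 1469 and 1621 CPM with hAMSC. Its set means were 202 ± 10.1 and 1606 ± 83.7 CPM (SD, n = 6 each), a ratio of 7.93, again with no overlap. The ratio of Tmem176b to Tmem176a counts was 2.85 to 3.09 in the lower-numbered set but 2.07 to 2.20 in the higher-numbered set, so Tmem176a differed more between the sets. The promoters printed above are those of 1 start per gene, but the RefSeq spans of the 2 genes, which take in all their transcripts, overlap on opposite strands. Whether the counting used strand is not given in the sources used here, and without it reads from the overlap could not be told apart.

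**Figure D1:**
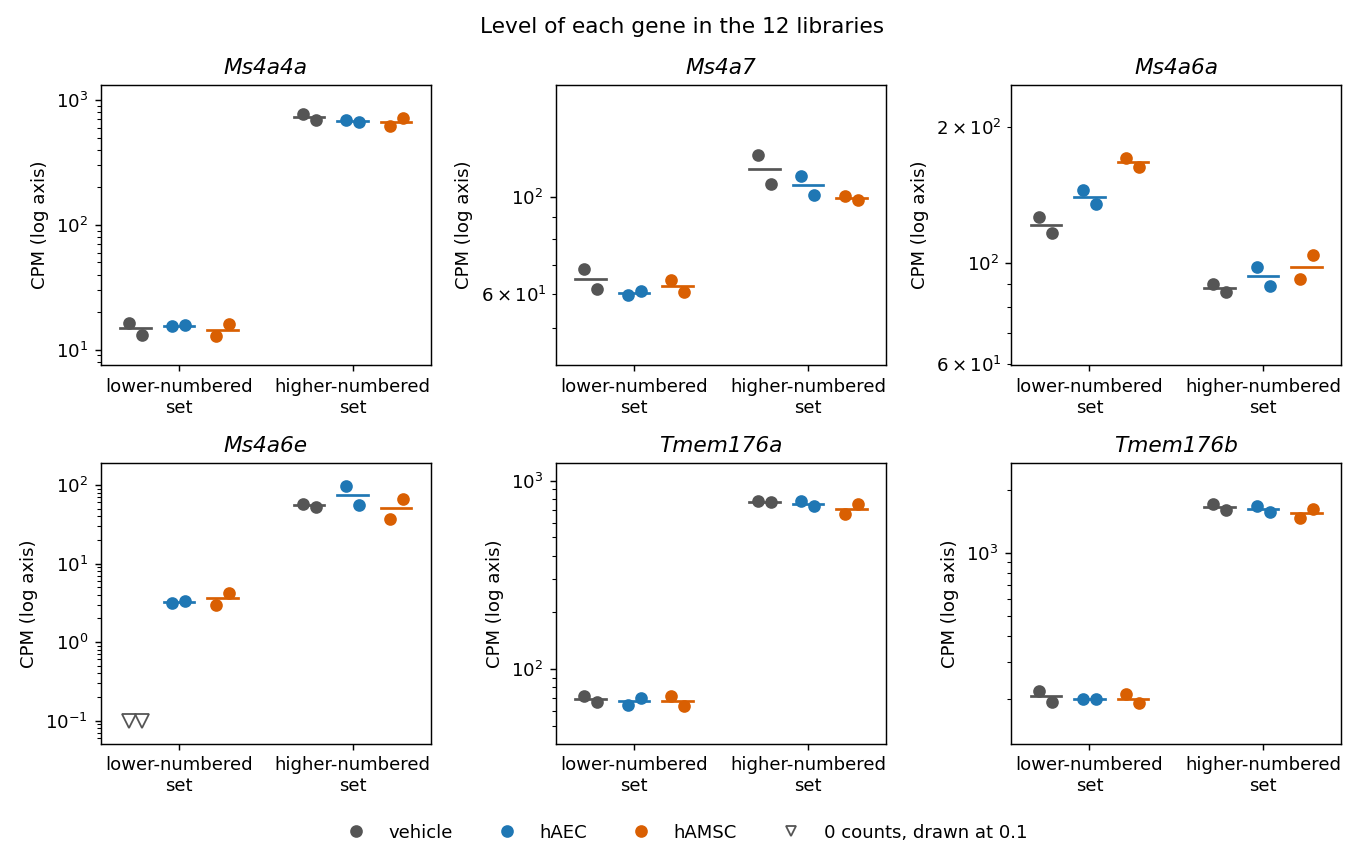
CPM (log axis, its range differing between panels) of the 6 genes in each of the 12 libraries, by library set and treatment. Points are libraries, lines are means of 2 libraries, and open triangles mark the 0 counts of Ms4a6e in vehicle 17 and 18. Ms4a4a, Ms4a6e, Tmem176a and Tmem176b sit far higher in the higher-numbered set, Ms4a7 somewhat higher and Ms4a6a lower.

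**Figure D2:**
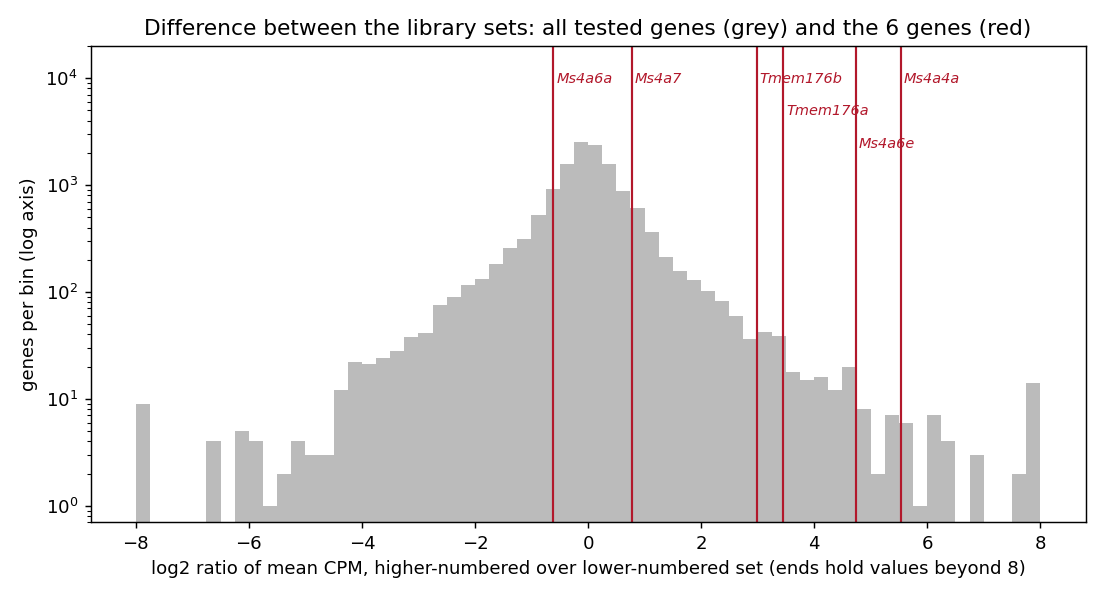
Number of tested genes (log axis) by log2 ratio of mean CPM, higher-numbered over lower-numbered set, with the 6 genes as red lines. Ms4a6a at -0.61 and Ms4a7 at 0.78 lie in the bulk of the 13723 genes, and Tmem176b at 2.99, Tmem176a at 3.46, Ms4a6e at 4.74 and Ms4a4a at 5.53 lie in the right tail.

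Other MS4A genes of the chromosome 1 cluster also differed between the sets, by very unequal amounts. Of the 14 in the files, 4 could be tested, and all 4 were higher in the higher-numbered set. Ms4a12 was at 0.0722 to 0.461 CPM in the lower-numbered set and at 2.99 to 4.82 CPM in the higher-numbered set, a ratio of 16.3 at low levels. Ms4a6bl was at 41.3 to 53.6 and at 343 to 378 CPM, a ratio of 7.61. The ratio was 2.53 for Ms4a14 and 1.69 for Ms4a6c, and none of the 4 overlapped between sets. Of the 4, 3 were over 2-fold higher without overlap, against 8.57% of all tested genes. The share of all genes without overlap at any fold was not counted. This list too was chosen with earlier results known, so nothing is read from these counts. In the order of the MS4A genes along the chromosome, with other genes left out, Ms4a7 (log2 ratio 0.78) and Ms4a4a (5.53) came next to each other. Ms4a1, the B cell antigen CD20, did not exceed 0.159 CPM in any library, and the mast cell gene Ms4a2 did not exceed 0.123 CPM. Ms4a3, Ms4a5, Ms4a10 and Ms4a13-ps1 had 0 counts in all 12 libraries.

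**Figure D3:**
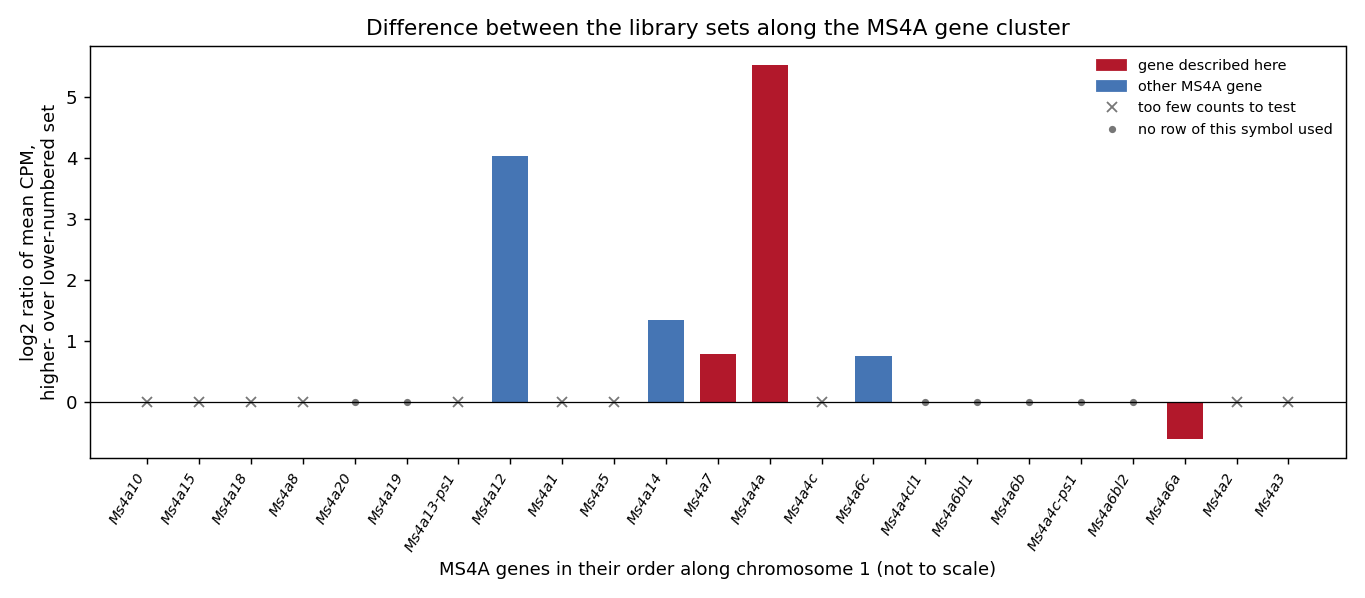
Log2 ratio of mean CPM between the library sets for MS4A genes in RefSeq order along chromosome 1 (not to scale). Bars are tested genes, crosses genes with too few counts to test, and dots genes not used under that symbol. Among the genes drawn, Ms4a4a (5.53) and Ms4a12 (4.03) differed most, and Ms4a6e (4.74) and Ms4a6bl (2.93) are not drawn because RefSeq places no gene under those symbols.

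As profiles over the 12 libraries, each centred on its own mean in log2 CPM, the 6 genes were not one pattern. Tmem176a and Tmem176b were the closest pair, with a root mean square difference of 0.236, and Ms4a4a lay 1.05 from Tmem176a. Ms4a6a and Ms4a7 were 0.718 apart, and Ms4a6a and Ms4a6e were the farthest pair at 4.07. Among 9212 genes with a mean of at least 5 CPM, those most like Ms4a4a were Apoe, the lipid carrier apolipoprotein E (root mean square difference 0.141, 94.5 to 125 CPM against 4440 to 6045 CPM), the scavenger receptor Stab1 (0.208, 26.9 to 35.7 against 1102 to 1467 CPM) and the peptidase Cpq (0.273). Those most like Tmem176a were Gas6, the ligand of the TAM receptors for apoptotic cells (0.0898, 35.8 to 43.3 against 403 to 439 CPM), the matrix protein Tgfbi (0.106) and Plekha5 (0.118). Those most like Tmem176b were the lysosomal protease Ctsc (0.0680, 114 to 136 against 862 to 1012 CPM), the HDL receptor Scarb1 (0.0779) and lysozyme Lyz2 (0.0781, 984 to 1196 against 8404 to 9932 CPM).

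Genes most like Ms4a7 were the glutaminyl-tRNA synthetase Qars (0.0549), Tcp11l2 (0.0602) and Washc3, a subunit of the endosomal WASH complex (0.0641). Genes most like Ms4a6a were Atp6ap2, the prorenin receptor and proton pump subunit (0.0585, 433 to 593 against 312 to 369.6 CPM) and Zfp655 (0.0751). For Ms4a6e the nearest were the receptors Gpr34 (2.16) and P2ry12 (2.26) and again Cpq (2.28), with large distances because of its 0 counts. All these profiles share the same 12 libraries and, above all, the same set difference.

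Other genes of macrophages differed between the sets as well. A gene is counted here only where the sets do not overlap, which with 2-fold holds for 8.57% of all tested genes as higher and 8.70% as lower. Of 16 tested genes of resident and alternatively activated macrophages, 9 were over 2-fold higher in the higher-numbered set and 2, the scavenger receptors Msr1 and Marco, over 2-fold lower. The summed level of the 18 listed genes was 4692 to 5034 CPM in the lower-numbered set and 9731 to 10190 CPM in the higher-numbered set. Of 15 genes of dectin-1 and TREM2 signalling, Trem2 (84.8 to 108 against 268 to 307 CPM) and the phosphatase gene Inpp5d were over 2-fold higher and Malt1 over 2-fold lower, whereas the dectin-1 gene Clec7a was at 350 to 445 against 316 to 368 CPM. Of 14 tested genes of MHC class II presentation, the thiol reductase gene Ifi30 was over 2-fold higher and the class II transactivator Ciita over 2-fold lower.

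Markers of several cell types moved with the sets. Of the macrophage markers 3 of 7, Adgre1, Lyz2 and Aif1, were over 2-fold higher in the higher-numbered set. Monocyte markers (4 genes) summed to 1.91 to 2.78 CPM and to 29.6 to 61.5 CPM, nearly all from the fractalkine receptor Cx3cr1 (0.0323 to 0.289 against 27.5 to 58.8 CPM). Endothelial markers (8 genes) summed to 476 to 582 CPM and to 253 to 315 CPM. Stellate markers (7 genes) summed to 59.0 to 98.1 CPM and to 16.8 to 23.4 CPM, mostly from Reln. Mast cell markers (5 genes) summed to 33.3 to 49.3 CPM and to 2.41 to 4.88 CPM. Nearly all of this came from the receptor Kit (33.0 to 48.7 against 2.30 to 4.51 CPM), the only one with enough counts to test. T cell markers (5 genes) summed to 25.3 to 27.1 CPM and to 11.02 to 16.7 CPM, mostly from Lck and Cd2. The T cell receptor genes Cd3d, Cd3e and Cd3g did not exceed 0.880 CPM in any library. Their set means went the other way, with log2 ratios of 1.11, 0.987 and 0.543 (higher-numbered over lower-numbered set). The part of these cell types in the set differences of the 6 genes was not tested. B cell markers (5 genes) summed to at most 0.294 CPM in any library.

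With hAEC, none of the 6 genes passed the test against vehicle, and no gene of the 13723 did (0%), by edgeR's quasi-likelihood test with the set as a term and Benjamini-Hochberg adjustment at 0.05. At an unadjusted p under 0.05 there were 768 genes (5.60%), among them Ms4a6a. Ms4a6a differed by 0.15 on the log2 scale (SE 0.06, adjusted p = 0.882 by edgeR). Ms4a7 differed by -0.12 (SE 0.06), Ms4a4a by -0.03 (SE 0.08), Tmem176a by -0.03 (SE 0.05), and Tmem176b by -0.04 (SE 0.05). Ms4a6e differed by 0.94 with an SE of 0.64. The adjusted p of these 5 genes ranged from 0.882 to 0.981 in the same edgeR test.

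With hAMSC, 33 genes passed against vehicle (0.240%), 22 higher (0.160%) and 11 lower (0.0802%), and none of the 6 genes was among them. Ms4a6a came nearest, at 0.31 on the log2 scale (SE 0.06, adjusted p = 0.0705 by edgeR). It was above vehicle without overlap in both sets, which holds for 3.96% of tested genes in this direction and for no other of the 6. Ms4a7 differed by -0.14 (SE 0.06, adjusted p = 0.447 by edgeR), Ms4a4a by -0.09 (SE 0.08), Tmem176a by -0.08 (SE 0.05) and Tmem176b by -0.07 (SE 0.05). Ms4a6e differed by 0.67 with an SE of 0.66.

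Ms4a6a rose with hAMSC within the lower-numbered set, from 121 ± 6.72 to 167 ± 5.41 CPM (SD, n = 2 each), a log2 difference of 0.46 (SE 0.07, adjusted p = 0.0313 by edgeR in a model of all 12 libraries with an interaction of group and set). It was the only one of the 6 genes to pass there, where 11 genes did (0.0802%). In the higher-numbered set the means were 88.1 ± 2.73 and 98.2 ± 8.60 CPM, a log2 difference of 0.16 (SE 0.07, adjusted p = 0.558 by edgeR). The difference between the sets in this effect, -0.30 (SE 0.10), had an unadjusted p of 0.00959 by edgeR and did not pass after adjustment (adjusted p = 0.326, with 27 genes passing, 0.197%). Without an expression filter this difference passed by edgeR (-0.30, adjusted p = 0.0485), in a fit where 533 genes did. The call within the lower-numbered set was lost in edgeR without hAMSC 7 (0.42, adjusted p = 0.223), vehicle 18 (0.40, adjusted p = 0.326), vehicle 17 (0.52, adjusted p = 0.0879), or hAEC 3 or vehicle 19 (0.46, adjusted p = 0.0539 each). Over both sets the Ms4a6a difference passed without hAMSC 15 (0.37, adjusted p = 0.0071 by edgeR). It also passed over both sets by DESeq2 (adjusted p = 0.000891). In all, Ms4a6a with hAMSC passed in 7 of 22 alternative settings, which include each set alone. Their adjusted p ranged from 0.000891 to 1.

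Markers of other cells were set beside this difference. Within the lower-numbered set the summed macrophage markers were at 10688 to 11030 CPM with vehicle and 10586 to 10840 CPM with hAMSC, and the endothelial markers at 544 to 561 and 476 to 582 CPM. Stellate markers, mostly Reln, summed to 77.3 to 98.1 CPM with vehicle and 59.0 to 80.0 CPM with hAMSC. Of these, 0 of 7 were above 0 in their log2 difference, with a median of -0.53. The 4 tested hepatocyte markers had a median of -0.93. The sum of all 6 hepatocyte markers was 519 to 583 CPM with vehicle and 553 to 651 CPM with hAMSC. Nearly all of it came from Tf, and no other hepatocyte marker exceeded 8.09 CPM in this set. In that set, 4 of 8 endothelial markers were above 0 in their log2 difference, with a median of 0.05, and none of these stellate, hepatocyte or endothelial markers passed. Over both sets 8 of 8 were above 0 with a median of 0.53, and in the higher-numbered set 4 of the 8 passed as higher with a median of 1.33 (0.845% of all tested genes passed in this direction). The part of these cell types in the Ms4a6a differences was not tested.

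Ms4a6bl and Ms4a6c, relatives of Ms4a6a, had values of the same sign with hAMSC, though at 0.02 and 0.14 in the higher-numbered set. Not all MS4A genes did. In the lower-numbered set Ms4a4a, Ms4a7 and Ms4a14 were at -0.03, -0.05 and -0.01, and Ms4a12, at low levels, was at 1.58. Within the lower-numbered set, Ms4a6bl was at 45.2 and 41.3 CPM with vehicle and 52.8 and 53.6 CPM with hAMSC (log2 difference 0.30, SE 0.07, adjusted p = 0.133 by edgeR). Ms4a6c was at 8.34 and 7.80 CPM with vehicle and 10.4 and 10.6 CPM with hAMSC (0.38, SE 0.12, adjusted p = 0.258 by edgeR). Neither passed. The hAMSC libraries were above the vehicle libraries for both, which holds for 21.6% of all tested genes in this set. The sum of Ms4a6a, Ms4a6bl, Ms4a6c and Ms4a6e, which does not depend on how reads were shared among them, was 180 and 166 CPM with vehicle, 204 and 190 CPM with hAEC, and 237 and 231 CPM with hAMSC in this set. It ran from 495 to 563 CPM over the 6 higher-numbered libraries.

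Ms4a6e had no counts in both lower-numbered vehicle libraries and had counts in the other 4 of that set. Against the level that 3 counts per library would give, its mean of 3.22 CPM with hAEC was at least 31.4-fold higher and its mean of 3.60 CPM with hAMSC at least 35.04-fold higher. This contrast rests on 2 vehicle libraries, and its adjusted p in edgeR's interaction model was 0.568 with hAEC and 0.201 with hAMSC. In an edgeR fit of the lower-numbered set alone it passed, with an adjusted p of 0.000269 with hAEC and 0.00161 with hAMSC. In those fits 16 genes passed with hAEC and 83 with hAMSC. Ms4a6e made up 0% of the summed level of Ms4a6e and Ms4a6bl in vehicle 17 and 18, 5.34% to 7.33% in hAEC 3 and 4 and hAMSC 7 and 8, and 9.51% to 21.7% in the higher-numbered set. The sum of these near copies was 45.2 and 41.3 CPM with vehicle, 49.98 and 45.6 CPM with hAEC, and 55.8 and 57.8 CPM with hAMSC, so that summed level did not share the 0 of Ms4a6e. In the higher-numbered set, where Ms4a6e was at 53.0 and 57.3 CPM with vehicle, the treatments overlapped.

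With 2 libraries a side within a set, libraries of many genes part. With hAEC in the lower-numbered set, Ms4a6a and Ms4a6e were above vehicle (19.4% of tested genes) and Ms4a7 below (20%). With hAMSC, Ms4a6a and Ms4a6e were above vehicle in the lower-numbered set (21.6%), and in the higher-numbered set Ms4a6a was above (19%) and Ms4a7 and Tmem176a below (18%). Between the treatments, Ms4a6a was lower with hAEC in the lower-numbered set (17.8%) and Ms4a7 higher with hAEC in the higher-numbered set (16.3%).

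The higher-numbered Ms4a7 libraries with hAMSC, which lay below those with vehicle, were at 99.5 ± 1.48 CPM against 116 ± 12.4 CPM with vehicle (SD, n = 2 each). The log2 difference of -0.23 (SE 0.08) did not pass (adjusted p = 0.309 by edgeR, with 137 genes passing, 0.998%). Without an expression filter it passed by edgeR (-0.23, adjusted p = 0.0412), in a fit where 506 genes did. The set in which hAMSC and vehicle parted for Ms4a7 was thus the one in which endothelial markers were higher with hAMSC, and the part of that RNA in the Ms4a7 values was not tested. In the lower-numbered set its log2 difference was -0.05 (SE 0.08) with overlapping libraries. The effects in the sets differed by -0.17 (adjusted p = 0.623 by edgeR).

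Set against each other directly, hAEC and hAMSC gave 3 genes that passed (0.0219%), all lower with hAEC and none of them among the 6. Ms4a6a differed by -0.17 (SE 0.06, adjusted p = 0.625 by edgeR). Its libraries parted in the lower-numbered set, with both hAEC libraries below both hAMSC libraries. Ms4a4a differed by 0.06 (SE 0.08), Ms4a7 by 0.02 (SE 0.06), Tmem176a by 0.04 (SE 0.05) and Tmem176b by 0.03 (SE 0.05), with an adjusted p of 0.992 for each in edgeR. Ms4a6e differed by 0.27 with an SE of 0.65. Both treatments were compared with the same vehicle libraries, so their differences from vehicle are not independent.

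**Figure D4:**
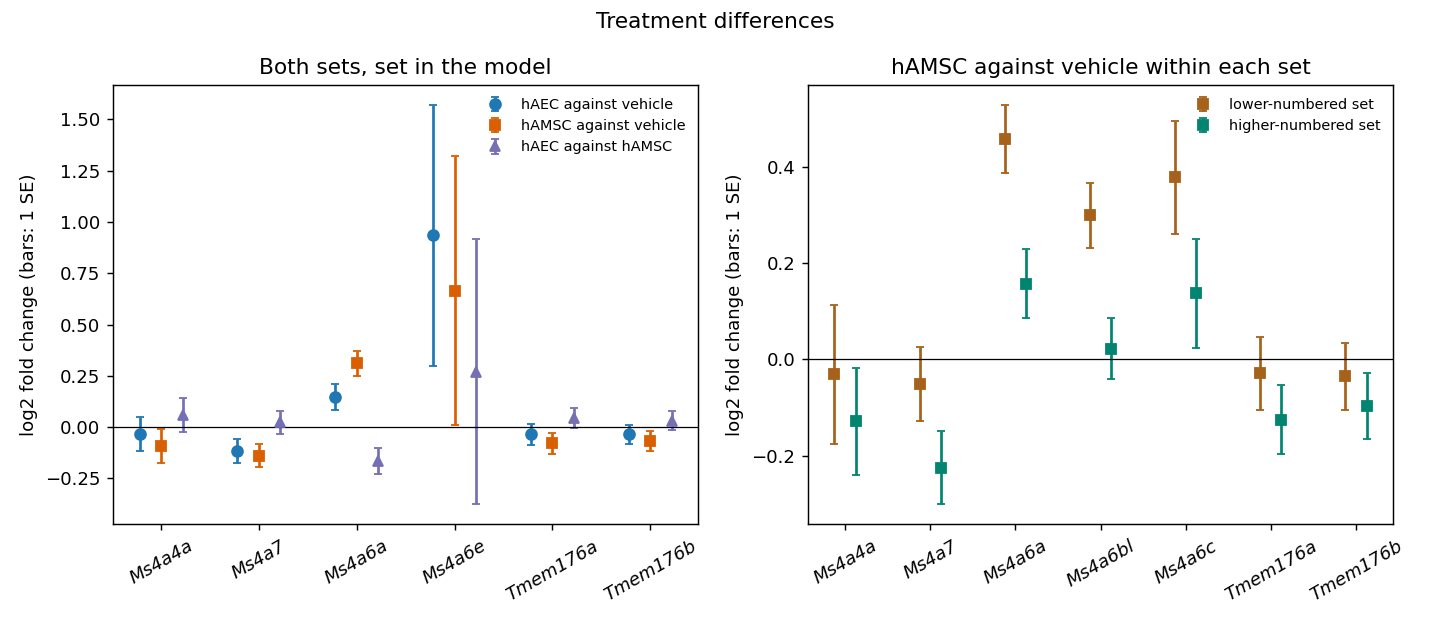
Log2 fold changes with bars of 1 SE. On the left, the 3 treatment comparisons for the 6 genes with the set in the model, and on the right hAMSC against vehicle within each set, with Ms4a6bl and Ms4a6c added and Ms4a6e left out because vehicle 17 and 18 had 0 counts. Ms4a6a with hAMSC lies at 0.31 over both sets, 0.46 in the lower-numbered and 0.16 in the higher-numbered set. Ms4a4a, Tmem176a and Tmem176b with hAMSC lie at -0.03, -0.03 and -0.04 in the lower-numbered set. In the higher-numbered set they lie at -0.13, -0.12 and -0.10, and Ms4a7 at -0.23.

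Few genes of the pathways around the MS4A and TMEM176 proteins passed the treatment tests. Of the other MS4A genes 4 of 15 listed could be tested and none passed in any of the 3 comparisons. Each gene taken at its smallest p, Ms4a6c with hAMSC differed by 0.25 (adjusted p = 0.302 by edgeR), Ms4a6bl for hAEC against hAMSC by -0.16 (adjusted p = 0.560) and Ms4a14 with hAMSC by -0.14 (adjusted p = 0.852). Their median log2 difference was 0.03 with hAEC, 0.07 with hAMSC and -0.04 between the 2 treatments, against medians within 0.0029 of 0 over all tested genes.

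All 15 genes of dectin-1 and TREM2 signalling were tested and none passed. Their medians were -0.00, 0.02 and -0.00 in the same order. Inpp5d, a lipid phosphatase that restrains immune receptor signalling, differed by 0.12 between hAEC and hAMSC (adjusted p = 0.436 by edgeR) and the progranulin gene Grn by -0.09 (adjusted p = 0.605). Trem2 differed by -0.16 with hAMSC (adjusted p = 0.313 by edgeR). Of 14 tested genes of MHC class II presentation none passed over both sets, with medians of 0.07, -0.01 and 0.08. The smallest p-values belonged to the class II chains RT1-Ba (0.13, adjusted p = 0.856 by edgeR), RT1-Da (0.10) and RT1-Db1 (0.09), all with hAEC against vehicle. Within the higher-numbered set, RT1-Ba was higher with hAEC than with hAMSC (0.23, SE 0.05, adjusted p = 0.0477 by edgeR), the only gene of the list to pass in either set, where 0.0510% of tested genes passed in this direction. In that comparison 13 of the 14 genes were above 0, with a median of 0.17.

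Among 16 tested genes of resident and alternatively activated macrophages, 2 rose with hAMSC against vehicle over both sets (0.160% of all tested genes did), and none passed with hAEC or between hAEC and hAMSC. The hemoglobin scavenger receptor Cd163 rose by 0.61 (SE 0.09, adjusted p = 0.0272 by edgeR) and the class A scavenger receptor Msr1 by 0.22 (SE 0.04, adjusted p = 0.0272). Cd163 lay between 99.1 and 178 CPM in the lower-numbered set and between 85.1 and 138 CPM in the higher-numbered set, and Msr1 between 1111 and 1347 CPM and between 533 and 652 CPM. Within the higher-numbered set Msr1 also passed in the interaction model of all 12 libraries (0.27, SE 0.05, adjusted p = 0.0199 by edgeR), as 0.845% of all genes did in this direction. In an edgeR fit of that set alone Msr1 did not pass (0.27, adjusted p = 0.0728). Stab1, whose profile was close to that of Ms4a4a, differed by -0.23 (adjusted p = 0.158 by edgeR). The list's median was 0.05 with each treatment and 0.02 between them. Leaving out hAEC 3, 4 or 11, hAMSC 16, or vehicle 18, 19 or 20 ended the Cd163 call, with values of 0.59 to 0.61 and an adjusted p up to 0.130 by edgeR. Leaving out hAEC 3, hAMSC 8 or 16, or vehicle 18, 19 or 20 ended that of Msr1, with values of 0.20 to 0.23 and an adjusted p up to 0.112. Both calls were also lost in edgeR with the group alone and with the 2 groups alone (adjusted p = 0.215 for Cd163 and 0.12 for Msr1). The same held for the lower-numbered set alone (0.569 and 0.218). Cd163 did not pass without an expression filter either (adjusted p = 0.0601 by edgeR). Of 22 alternative settings, Cd163 passed in 11 and Msr1 in 12.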

How the data were processed

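The authors deposited expected counts per gene for each library, whole-gene estimates that need not be whole numbers (80.5% of those above 0 were whole). Per the labels' protocols, the RNAqueous-Micro kit served for extraction and TruSeq Stranded mRNA for library preparation. The submitters' processing notes name the tools RSEM, STAR, limma, Trim Galore and FastQC and the builds Rnor_6.0 and rn6. Their versions and the use of strand in counting are not given here. No pair of libraries agreed within sampling noise.

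Rounded counts went into edgeR 4.0.16 (R 4.3.3) with filterByExpr on group and set, TMM scaling (factors 0.974 to 1.03), and a robust quasi-likelihood fit over all 12 libraries with group and library set as terms. All tests were two-sided, with Benjamini-Hochberg adjustment over 13723 genes and a threshold of 0.05. The biological coefficient of variation was 38.9% without the set as a term and 10.0% with it. CPM used the scaled library sizes, and SD values are over libraries. Of the genes in the files, 197 had no symbol. The fit was tested on simulated data.

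The 6 genes, the gene and marker lists, the set term and the alternatives were chosen with earlier results of these data known. Named are the 6 genes, the 3 nearest profiles of each, and from each list up to 3 genes with the smallest p and any that passed. A gene that this rule names is not reported here. Ms4a6b, Ms4a13, Itgam and Plac8 were not analysed here. Alternatives were no filter, a mean of at least 5 CPM, scaling by library size alone or by relative log expression, DESeq2 1.42.0, limma voom (limma 3.58.1), the group alone, the compared groups alone, each set alone, and leaving out each library.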

Additional observations from a re-analysis of the deposited data

How the results depend on the processing

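The differences between library sets kept direction and size for all 6 genes under every alternative run (scaling, filter, each library left out). The number of genes past 2-fold without overlap was 2370, 1319 when only genes averaging 5 CPM or more were kept, and 2419 to 2496 with a library left out. Counts of genes passing the treatment tests depended on the processing. For hAEC against vehicle (0) they were 2 by DESeq2, 1 by limma voom, 7 with the 2 groups alone, 11 with the higher-numbered and 16 with the lower-numbered set alone, and 0 to 3 with a library left out. For hAMSC against vehicle (33) they were 156 by DESeq2, 0 with the group alone, 52 without an expression filter, 6 with the 2 groups alone, 114 with the higher-numbered and 83 with the lower-numbered set alone, and 8 to 152 with a library left out. For hAEC against hAMSC (3) they were 79, 0, 10 by limma voom, 26 without a filter, 52 and 5 for the higher-numbered and lower-numbered set alone, and 0 to 53. For the difference of the hAEC effect between sets (0) they were 20 by DESeq2, 309 without a filter and 0 to 8 with a library left out, and for hAMSC (27) 112 by DESeq2, 10 by limma voom, 533 without a filter and 0 to 157.

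Ms4a6a with hAMSC against vehicle kept its direction in all 22 alternatives, which include each set alone. Its values ran from 0.16 to 0.46 over all of them and from 0.26 to 0.37 with a library left out. It passed in 7. These were DESeq2 (adjusted p = 0.000891), scaling by library size alone (0.0395), limma voom (0.0453), a mean of at least 5 CPM (0.0468), no filter (0.0322), the lower-numbered set alone (0.0121) and leaving out hAMSC 15 (0.0071). Within the lower-numbered set the Ms4a6a call held in 13 of 18. The difference of the Ms4a6a hAMSC effect between sets passed in 1 of 18, the setting without an expression filter. Ms4a7 with hAMSC within the higher-numbered set also passed in that setting alone. Some log2 differences that had not passed changed sign, and none passed with the other sign. With the lower-numbered set alone, Ms4a4a for hAEC against vehicle was 0.0799, and for hAEC against hAMSC Ms4a6e was -0.156, Ms4a7 -0.0556, Tmem176a -0.0055 and Tmem176b -0.0059. Ms4a6e with hAMSC was -0.0059 with the group alone and -0.0983 with the higher-numbered set alone. With a library left out, Ms4a4a for hAEC against vehicle ran from -0.0933 to 0.0205 (above 0 without vehicle 19). For hAEC against hAMSC, Ms4a6e ran from -0.109 to 0.536, Tmem176a from -0.00106 to 0.0885 and Tmem176b from -0.00333 to 0.0665, each below 0 only without hAMSC 15. Ms4a7 ran from -0.0130 to 0.0611 and was also at -0.00344 without hAMSC 16. The cause of these changes was not tested.

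No paired analysis was possible because the groups share no sample numbers. With 2 libraries per treatment and set, differences within a set have little replication, and 0 counts of Ms4a6e leave only a lower bound.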
